A study of Rattus norvegicus with 18 samples.

Results

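The cytosolic ribosomal proteins, the protein components of the ribosomes that translate nuclear mRNAs, were followed in the liver transcriptome of the BarNa rat model of non-alcoholic steatohepatitis (NASH). Members were chosen by symbol: names that begin with Rpl or Rps followed by a number, plus Rpsa, Rplp0, Rplp1 and Rplp2, without the Rps6k kinases, with at least 10 counts in at least 6 rats. Of 32623 gene rows, 102 matched the symbols and 89 also passed the count floor, 54 of the large subunit and 35 of the small subunit, which carry 84 different symbols. RNA-seq covered whole liver of 18 male Wistar rats, 6 per group and 1 library per rat. Control rats received standard chow for 12 weeks. NASH rats inhaled CCl4 and drank phenobarbital for 6 weeks and then received a high-fat, high-cholesterol diet (HFCD) for 4 weeks, 10 weeks in all. NASH-CH rats, the model of NASH with cirrhosis, received CCl4 and phenobarbital for 8 weeks and then these agents together with the HFCD for 16 weeks, 24 weeks in all. The single control group served both models, so both comparisons with control share its 6 libraries, and neither model has controls of its own duration.

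Each cytosolic ribosome holds a large subunit, which joins amino acids, and a small subunit, which reads the mRNA, and nearly every ribosomal protein is present once per subunit. The genes for these proteins are therefore usually expressed in step, and their mRNAs are known for a TOP motif, a C at the first base followed by an unbroken run of pyrimidines (C or T in the gene), through which mTOR signalling sets their translation. The liver, which makes most plasma proteins, is rich in ribosomes. Several ribosomal proteins also have roles outside the ribosome, such as the Mdm2 and p53 pathway for Rpl5 and Rpl11.

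The start regions of 8 members are shown here because the results turn on these genes or on their parent gene, and because a pyrimidine run at the start was more frequent in members than in all promoters. Promoters came from RefSeq in the GRCr8 build, another build than that of the counts, and 65 of the 84 member symbols matched. Each sequence runs 5′ to 3′ on the strand of the gene, from 30 bases before the annotated start through the first 20 transcribed bases, and capitals mark the pyrimidine run that holds the start base.
Rplp1 (chr8:71290853-71290902, minus strand): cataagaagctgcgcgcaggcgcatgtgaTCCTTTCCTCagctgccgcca
Rps21 (chr3:187724008-187724057, plus strand): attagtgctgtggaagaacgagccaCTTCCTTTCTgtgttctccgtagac
Rpl35a (chr11:81235002-81235051, minus strand): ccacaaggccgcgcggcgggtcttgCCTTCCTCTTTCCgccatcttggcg
Rps10 (chr20:5700725-5700774, minus strand): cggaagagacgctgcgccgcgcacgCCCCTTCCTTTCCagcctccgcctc
Rps27 (chr2:177964587-177964636, minus strand): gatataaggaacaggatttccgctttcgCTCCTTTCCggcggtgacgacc
Rpl36 (chr9:1533750-1533799, plus strand): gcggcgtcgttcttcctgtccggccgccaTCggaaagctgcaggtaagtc
Rpl41 (chr7:1563478-1563527, minus strand): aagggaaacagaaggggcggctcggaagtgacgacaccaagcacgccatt
Rps27l (chr8:76443628-76443677, plus strand): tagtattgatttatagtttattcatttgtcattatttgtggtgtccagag
The run was 10 bases long in Rplp1 and Rps21, 13 bases in Rpl35a and Rps10 and 9 bases in Rps27. In Rpl36 it was 2 bases long at the annotated start, and in Rpl41 and Rps27l the annotated start was not a pyrimidine. Rpl5 and Rps6 were also examined but are not shown. The run was 2 bases long in Rpl5, and in Rps6 the annotated start was not a pyrimidine.

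Over the 65 matched promoters, 35.4% had a C at the annotated start followed by at least 4 pyrimidines, against 2.63% of all 33469 promoters in the table. A run of at least 7 pyrimidines within 20 bases of the start was present in 83.1% of members and in 30.1% of all promoters. Searched on both strands of the 300-base promoters, the letters CTTTCC occurred in 49.2% of members and 26.4% of all promoters, CCGGAAG in 32.3% and 8.75%, GGGCGG in 56.9% and 33.1%, TATAAA in 12.3% and 14.2%, and CAAGATGGC in 3.08% and 1.32%. Among the 26 matched members that were called lower in NASH-CH, 34.6% had the C followed by at least 4 pyrimidines, against 35.9% of the other 39. In the same order, a run of at least 7 pyrimidines was present in 88.5% and 79.5%, CTTTCC in 65.4% and 38.5%, CCGGAAG in 46.2% and 23.1%, GGGCGG in 65.4% and 51.3%, TATAAA in 15.4% and 10.3%, and CAAGATGGC in 7.69% and 0%. These matches describe letters in a window and carry no test, and the CTTTCC letters can lie within the pyrimidine run itself.

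Of the 13 rows that matched a symbol but not the floor, 10 held no more than 2 counts in any library. The other 3 were Rpl39l, with at most 22 counts in a library, a row of Rpl21 with at most 18, and a row of Rpl13a with at most 15. Of the 89 members, 88 passed the filter on low counts and entered the test, 53 of the large subunit and 35 of the small subunit, and Rpl5l1 did not. By symbol, 9 members were paralogs of another ribosomal protein, and 10 rows shared a symbol with another member, of which the 2 rows of Rpl7a held identical values in every rat. Reads of such near-identical copies may have been divided between rows by the quantification, so the values of paralogs and repeated symbols are uncertain.

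The libraries held 19498516 to 60117806 counts. All NASH-CH libraries, with 44680345 or more, were deeper than those of the other groups, with 29491895 or fewer. Genes of the mitochondrial genome took 14.8% to 26.2% of counts, and the 7SK and SRP RNA genes 10.5% to 21.0%. The 7SK and SRP share was 15.2% to 21.0% in control, 13.9% to 16.2% in NASH and 10.5% to 12.6% in NASH-CH. Depth and this share thus both set NASH-CH apart, and their part in its calls was not tested. Control rats 1, 3 and 5 stood apart from the other control rats: their TMM factors, the composition correction applied to library size, were the 3 lowest of 18, between 0.790 and 0.845. The same 3 libraries had the 3 highest levels of the members. The counts of members and of pathway and marker genes called against control are therefore also given without them. This alternative was added after the data were seen. Leaving out libraries with known high levels could only lower the control level of the members. With fewer control rats, fewer genes of any kind passed: 8.6% of all genes were called lower in NASH-CH with all rats and 2.43% without these 3. Such fits describe the dependence on these libraries and do not test the members. The 7SK and SRP share was 16.9% to 21.0% in these rats and 15.2% to 17.4% in control rats 2, 4 and 6, and its part in the result was not tested.

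The first question was whether the livers of the models held less ribosomal protein mRNA as a whole. Members took 0.788% ± 0.058 of all counts in control rats, 0.786% ± 0.050 in NASH and 0.792% ± 0.145 in NASH-CH (SD, n = 6 each). The share ran from 0.715% to 0.849% in control, from 0.741% to 0.877% in NASH and from 0.665% to 1.076% in NASH-CH, so the 3 groups overlapped, and NASH-CH rat 5 held the highest share. The large subunit rows alone took 0.489% ± 0.033, 0.492% ± 0.030 and 0.494% ± 0.088, and the small subunit rows 0.300% ± 0.025, 0.294% ± 0.020 and 0.298% ± 0.057, in the same order of groups. With the mitochondrial, 7SK and SRP genes left out of the total, control rats held 1.30% ± 0.18, NASH rats 1.16% ± 0.09 and NASH-CH rats 1.18% ± 0.26, again with overlap. As parts of the whole library, the ribosomal protein mRNAs therefore did not separate the groups. In bulk liver, fewer cells of a type and less RNA per cell cannot be told apart.

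**Figure D1:**
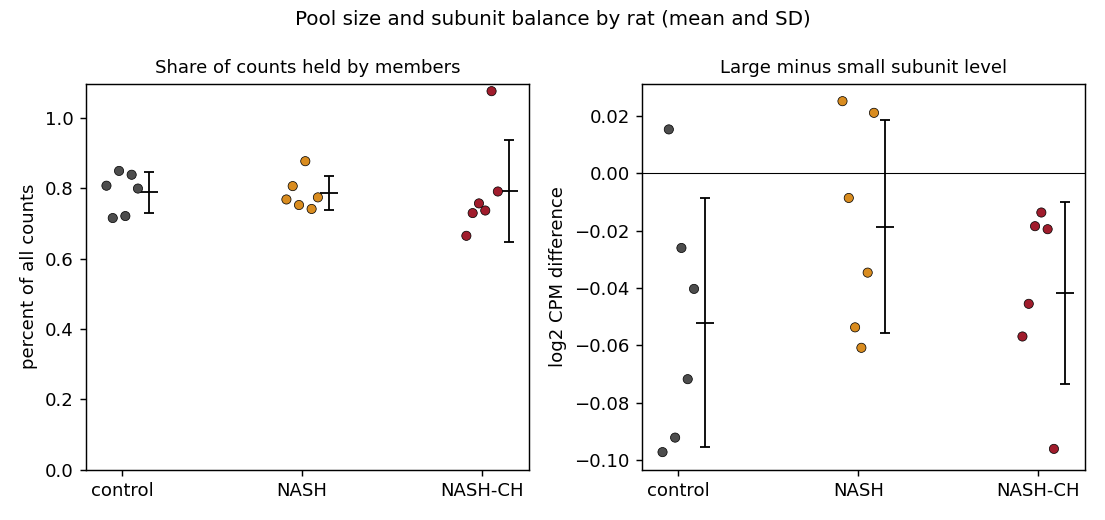
Left, percent of all counts held by the 89 members in each rat. Right, the mean log2 CPM of the large subunit members minus that of the small subunit members. Points are rats in order 1 to 6, with the mean and SD beside them. The groups overlap in both panels, and the highest share, 1.076%, is NASH-CH rat 5.

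Scaled by TMM, which sets most genes level between libraries, the picture depended on which control libraries were read. The mean log2 CPM (counts of a gene relative to the TMM-scaled total of its library) over the large subunit members ran from 5.61 to 6.15 in control with a median of 5.89, from 5.63 to 5.80 in NASH with a median of 5.68, and from 5.44 to 5.83 in NASH-CH with a median of 5.64. Over the small subunit members it ran from 5.60 to 6.22, from 5.64 to 5.81 and from 5.54 to 5.85, with medians of 5.95, 5.70 and 5.66. Control rats 1, 3 and 5 lay above every other library in both subunits, while control rats 2, 4 and 6 lay within the range of the model rats. Over all members these 3 control libraries were at 6.06 to 6.18, and control rats 2, 4 and 6 at 5.61 to 5.77. With library size as the only scaling the means over all members were 5.75 ± 0.11, 5.77 ± 0.09 and 5.74 ± 0.24 in control, NASH and NASH-CH.

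A measure that needs no scaling between libraries is the distance of the members from the median tested gene of the same library. The mean member lay 3.07 ± 0.27 log2 units above the median gene for control, 2.84 ± 0.06 for NASH and 2.76 ± 0.13 for NASH-CH (SD, n = 6 each). The control rats ran from 2.72 to 3.37, the NASH rats from 2.78 to 2.93 and the NASH-CH rats from 2.55 to 2.94. The values of both models thus stayed inside or below the control range, and the control group had the widest spread of the 3.

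**Figure D2:**
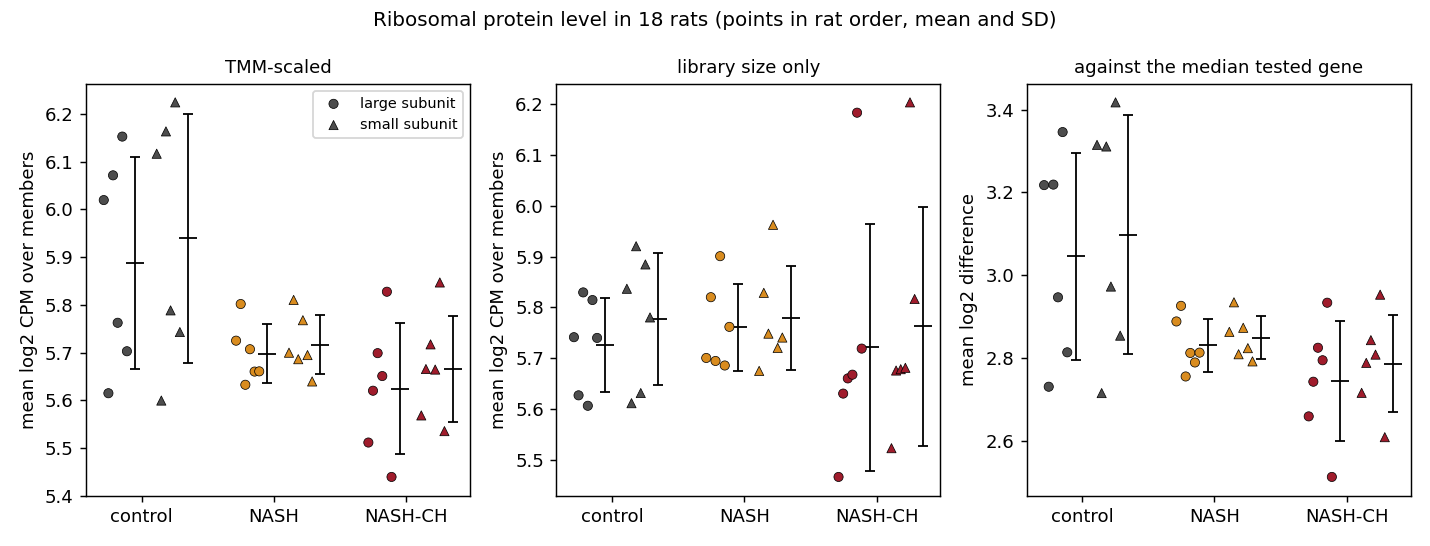
Mean level of the large subunit members (circles) and small subunit members (triangles) in each rat, scaled by TMM (left), by library size only (middle), and as the distance from the median tested gene of the same library (right), in log2 units. Points are rats in order 1 to 6, with the mean and SD beside them. Control rats 1, 3 and 5 are the 3 highest in the left and right panels. In the middle panel the groups overlap and the lower level of the models is absent.

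In NASH against control, ribosomal protein genes lay slightly lower nearly throughout, but only Rpl41 passed the test. The log2 fold change was below 0 for 84 of 88 members, with a median of -0.22 in the large subunit and -0.25 in the small subunit, against 0.0072 over all 12904 genes tested. With library size only the medians were 0.014 and -0.023, with the median of all genes at 0.23. The large subunit median thus turned sign and the small subunit median moved close to 0. Both stayed about as far below the median gene (-0.21 and -0.25). Scaling moves all genes of a library alike, so this distance could hardly change. Of the 88 members, 1 was called lower (1.14%) and 0 higher by limma, where 1.54% of all genes were called lower and 1.58% higher. At an unadjusted p under 0.05 there were 43 members, all lower, where 2776 of all 12904 genes passed and 11% were lower. DESeq2 called 16 members lower, where it called 5.11% of all genes lower, and the edgeR quasi-likelihood test 5, where it called 2.53% lower, and neither called any member higher.

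Rpl41, which encodes the shortest ribosomal protein, ran from 210 to 339 CPM in control with a median of 282, and from 168 to 215 CPM in NASH with a median of 194. The ranges overlapped only at their ends. Its level fell by 0.50 on the log2 scale (SE 0.12), 0.705 times the control level, with an adjusted p of 0.0260 in limma. With library size only the change of Rpl41 was -0.27 with an adjusted p of 0.0927 in limma, so it was not called then. The next members by moderated t were Rpl18, at 78.6 to 104 CPM in control and 70.5 to 76.6 CPM in NASH, and Rps2, at 231 to 376 and 213 to 264 CPM. Their log2 fold changes were -0.30 (SE 0.08) and -0.37 (SE 0.11), both with an adjusted p of 0.0577 in limma, so neither was called. Rpl18 was the only member whose NASH rats all lay below all control rats, where 1.39% of all genes did.

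Single libraries decided this count. It was 0 without control rat 1, 3, 4 or 5 or without NASH rat 3, 4 or 5. It was 15 without control rat 2 and 8 without control rat 6. Without NASH-CH rat 5 and 6 it was 5 and 3. Those libraries enter this comparison only through shared steps: the filter, the scaling, the spread and the adjustment of p. The share of all genes called in these fits is not given, so the counts do not set the members apart from other genes. Without control rats 1, 3 and 5 together, 0 members were called and 55 of 89 members lay below 0. The medians were then -0.016 in the large and -0.018 in the small subunit, or -0.0097 and -0.012 from the median gene.

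In NASH-CH against control, 33 members were called lower, 17 of the large and 16 of the small subunit, and 1 paralog, Rps18l1, was called higher. That is 37.5% of the 88 members tested, where 8.6% of all genes were called lower, and 8.38% higher. The median log2 fold change was -0.27 in the large and -0.32 in the small subunit, against 0.013 over all genes, and 84 of 88 members lay below 0. With library size only the medians were 0.0010 and -0.053, with the median of all genes at 0.27. Here too the large subunit median turned sign, and the small subunit median stayed below 0. The distance below the median gene was -0.27 and -0.32, which a change of scaling could hardly alter. Without control rats 1, 3 and 5 the medians were -0.073 and -0.14, or -0.064 and -0.13 from the median gene. Of 89 members, 66 lay below 0. Then 3 members were called, 2 of them lower, where 2.43% of all genes were called lower. Without control rat 3 or 5 alone 21 were called, for which the share of all genes called is not given.

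Rpl36, a small basic protein of the large subunit, had the largest fall. It ran from 25.8 to 44.7 CPM in control with a median of 37.3, from 25.6 to 32.5 CPM in NASH with a median of 28.3, and from 16.3 to 24.1 CPM in NASH-CH with a median of 20.8. Every NASH-CH rat lay below every control and every NASH rat. The log2 fold change against control was -0.79 (SE 0.13), 0.579 times the control level, with an adjusted p of 0.000446 in limma.

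Rps21, a protein of the small subunit, showed the same order of groups. It ran from 16.4 to 30.1 CPM in control with a median of 24.9, from 18.6 to 20.8 CPM in NASH with a median of 19.2, and from 12.3 to 15.9 CPM in NASH-CH with a median of 14.6. The NASH-CH rats again lay below all rats of the other groups. The log2 fold change against control was -0.72 (SE 0.12), 0.607 times the control level, with an adjusted p of 0.000764 in limma.

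Rplp1, an acidic protein of the stalk that recruits translation factors, ran from 179 to 294 CPM in control with a median of 232, from 150 to 193 CPM in NASH and from 140 to 162 CPM in NASH-CH with a median of 156. The NASH-CH rats did not overlap with the control rats. It fell by 0.60 on the log2 scale (SE 0.12), with an adjusted p of 0.00281 in limma. Rpl35a, of the large subunit, ran from 4.86 to 9.62 CPM in control and from 3.13 to 5.96 CPM in NASH-CH, with a log2 fold change of -0.68 (SE 0.18) and an adjusted p of 0.0165. Its groups overlapped.

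Besides Rpl36, Rps21 and Rplp1, the NASH-CH and control ranges were apart for Rpl41 and Rps29, which makes 5 of 88 members, where 3.46% of all genes lay lower without overlap. Besides these 5 and Rpl35a, the members called lower had log2 fold changes between -0.57 for Rps10l1 and -0.31 for Rpl18, and included Rps2, Rps12, Rps18, Rps25, Rps27, Rpl13, Rpl37, Rpl38 and Rpl39. Rpl36, Rps21 and Rplp1 were also called lower with library size only, and no other member was called lower then, where 3.79% of all genes were. Rpl36 and Rps21 alone were called lower without control rats 1, 3 and 5, with log2 fold changes of -0.53 and -0.45 and adjusted p of 0.0228 and 0.0291 in limma.

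**Figure D3:**
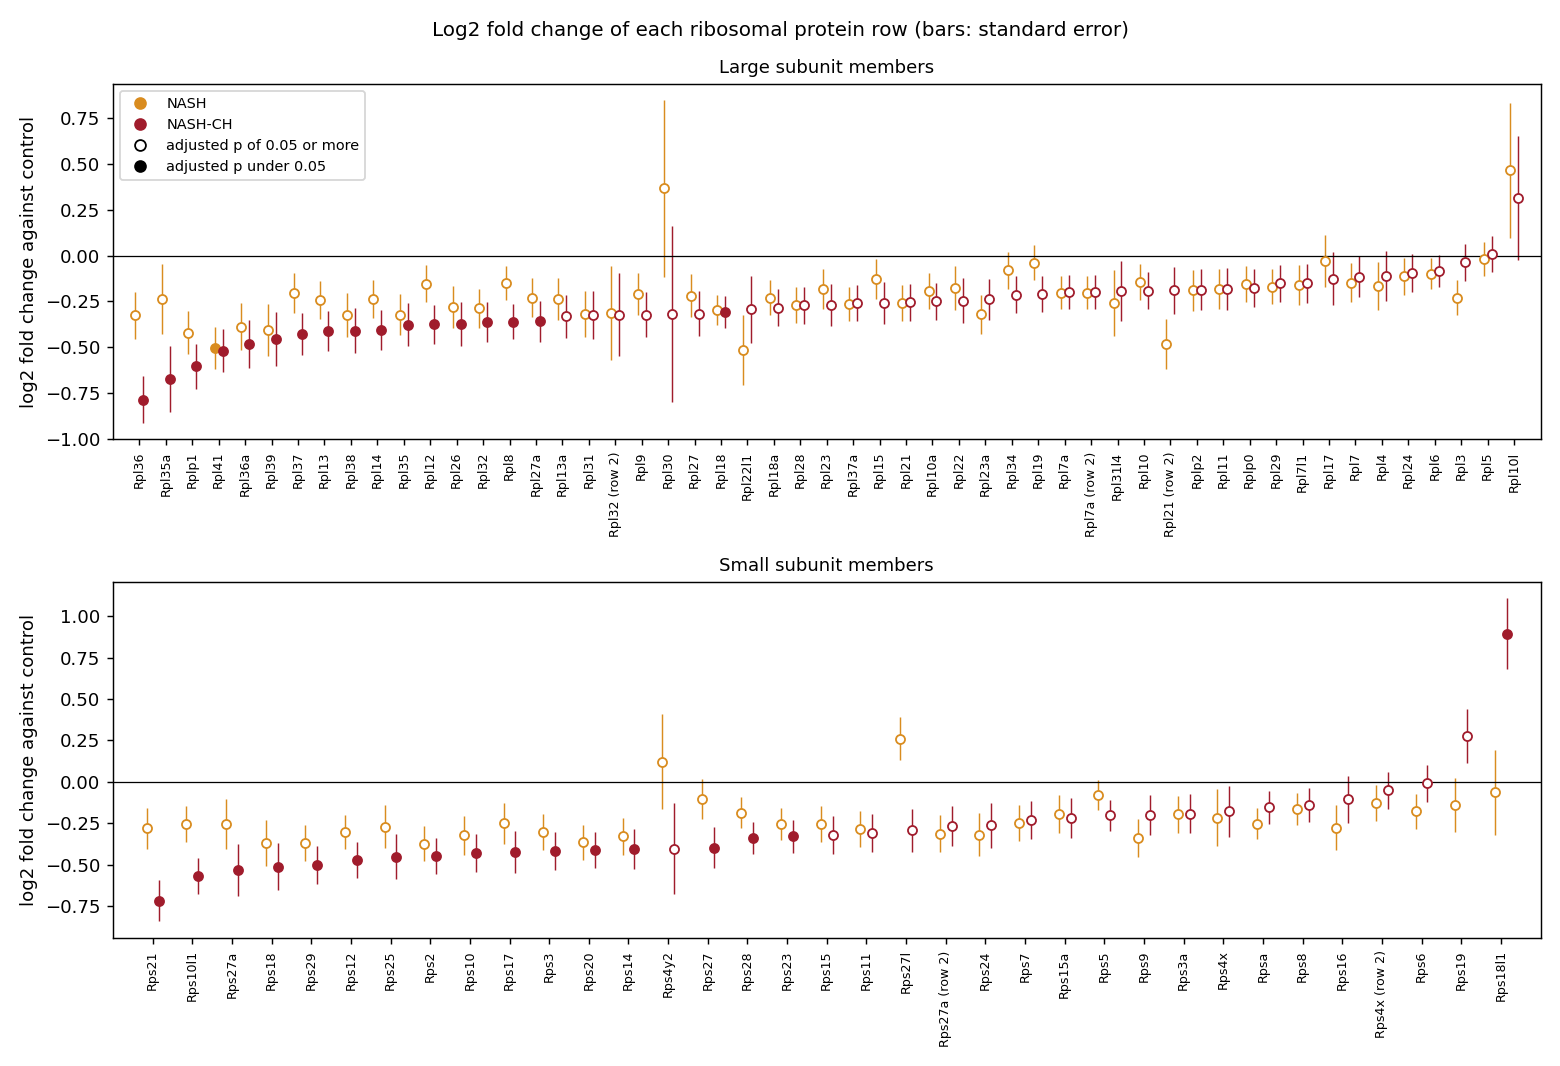
Log2 fold change against control of each tested member in NASH (orange) and NASH-CH (red), TMM-scaled, with standard errors. Filled points have an adjusted p under 0.05. Large subunit members are above and small subunit members below, ordered by the NASH-CH value, and a repeated symbol is marked as row 2. Of 88 members, 84 lie below 0 in either comparison under this scaling, which places 1 and 34 filled points, while with library size only the medians lie near 0.

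The largest contrasts between the models were in a few members. In NASH-CH against NASH, 2 members were called lower and 1 higher, 2.27% lower where 2.39% of all genes were called lower and 1.81% higher. The median log2 fold change was -0.054 in the large and -0.076 in the small subunit, against 0.0068 over all genes. Rpl36 was lower again, by -0.46 (SE 0.13) with an adjusted p of 0.0497 in limma, and Rps21 differed by -0.44 (SE 0.12) with an adjusted p of 0.0544. The call of Rpl36 did not survive leaving out 1 library in 13 of 18 cases (control rats 3 and 4, every NASH rat, and NASH-CH rats 1, 2, 3, 4 and 6), with adjusted p between 0.0269 and 0.0953 over all 18. For Rpl36 and Rps21 the ranges of the models did not overlap, where 2.1% of all genes lay lower without overlap.

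Rps27l, a paralog of Rps27 that p53 is known to induce, took another course. It ran from 26.6 to 40.0 CPM in control with a median of 31.6, from 31.1 to 46.2 CPM in NASH with a median of 41.4, and from 20.9 to 34.3 CPM in NASH-CH with a median of 26.7. By their medians NASH rats were the highest group and NASH-CH rats the lowest, and the ranges of all groups overlapped. NASH-CH was lower than NASH by 0.55 on the log2 scale (-0.55, SE 0.13) with an adjusted p of 0.0218 in limma, which became 0.0505, 0.0511 and 0.0547 without NASH rat 3, 5 or 6. Against control the values were 0.26 (SE 0.13) in NASH and -0.29 (SE 0.13) in NASH-CH, with adjusted p of 0.254 and 0.134. With library size only Rps27l was called higher in NASH against control, in a fit where the median of all genes was itself at 0.23. Its parent Rps27 ran from 77.7 to 122 CPM in control, from 83.3 to 110 CPM in NASH and from 57.3 to 85.1 CPM in NASH-CH, and fell in NASH-CH (-0.40, SE 0.12, adjusted p 0.0343).

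Rps18l1 was the member called higher. It ran from 0.909 to 2.47 CPM in control, from 0.847 to 1.68 CPM in NASH and from 1.99 to 2.76 CPM in NASH-CH. All NASH-CH rats lay above all NASH rats, as in 1.36% of all genes, and above 5 of the 6 control rats. It was higher by 0.89 (SE 0.21) against control, with an adjusted p of 0.00881, and by 0.96 (SE 0.21) against NASH, with an adjusted p of 0.0109, both in limma. The row rests on 19 to 201 counts per library, and Rps18, the parent gene with 123 to 279 CPM over the rats, fell in NASH-CH (-0.51, SE 0.14, adjusted p 0.0199).

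**Figure D4:**
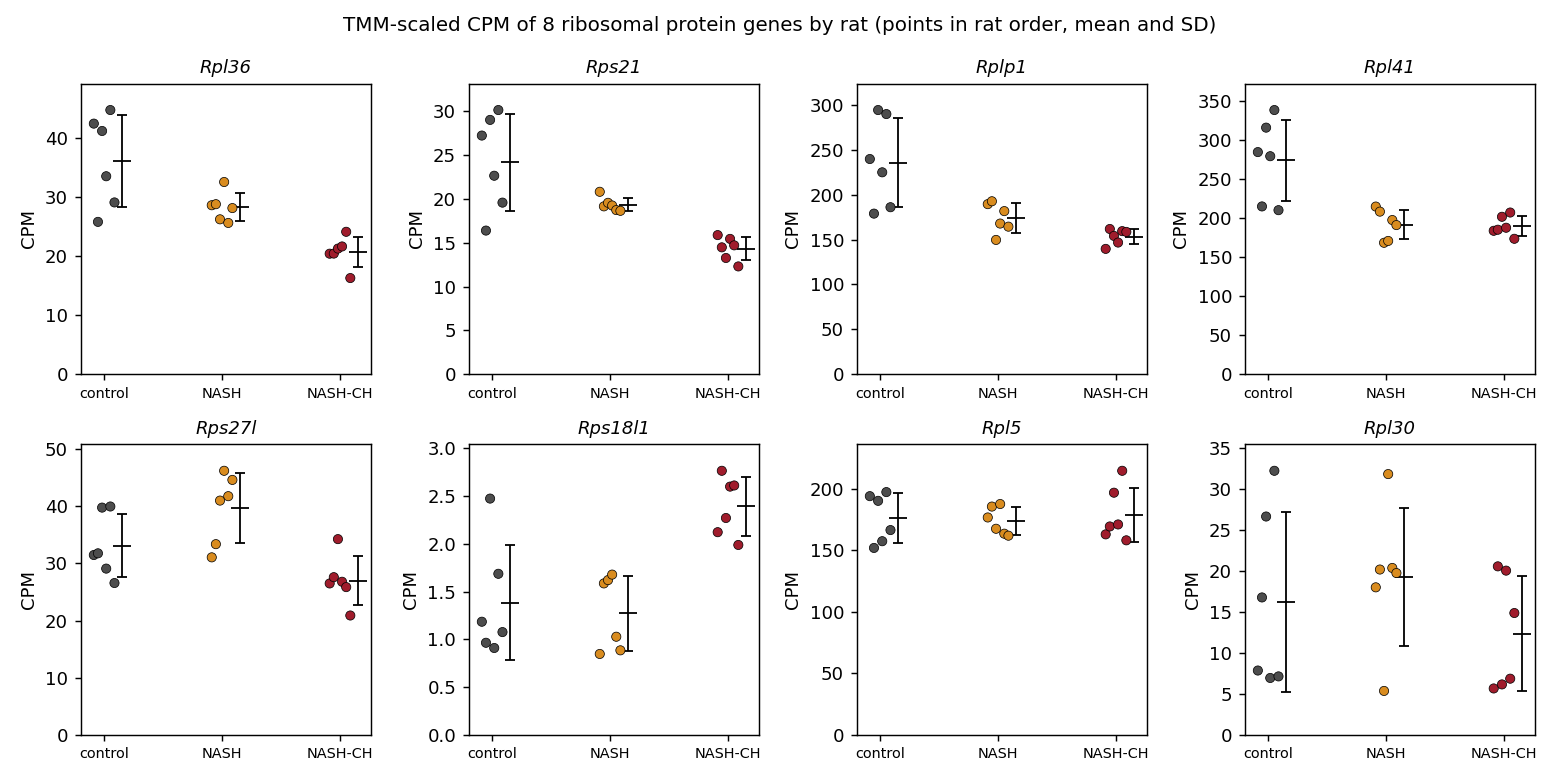
TMM-scaled CPM of 8 members in each rat, with the mean and SD beside the points (rats in order 1 to 6). Rpl36 and Rps21 are lowest in all 6 NASH-CH rats. Rplp1 and Rpl41 have their highest mean in control, where they overlap with NASH. The highest mean of Rps27l is in NASH and that of Rps18l1 in NASH-CH. Rpl5 overlaps in all groups and Rpl30 splits into high and low rats within each group.

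The balance between the subunits was close to level. The mean log2 CPM of the large subunit members minus that of the small subunit members came to -0.052 ± 0.043 for control, -0.019 ± 0.037 for NASH and -0.042 ± 0.032 for NASH-CH (SD, n = 6 each). The ranges, -0.097 to 0.015, -0.061 to 0.025 and -0.096 to -0.014, overlapped. As the log2 ratio of summed counts, large over small, the values were 0.71 ± 0.03, 0.74 ± 0.03 and 0.73 ± 0.02, also with overlap. The larger share of called members in the small subunit, 45.7% against 32.1% in NASH-CH, thus came with no separation of the groups in the difference of the levels.

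By role, the stalk was uneven in its calls. Rplp0, the stalk base, ran from 218 to 326 CPM in control, from 222 to 276 CPM in NASH and from 209 to 263 CPM in NASH-CH, and Rplp2 from 14.8 to 23.3, from 14.9 to 17.1 and from 13.1 to 20.3 CPM. Neither passed the test in NASH-CH (log2 fold changes -0.17 and -0.19, adjusted p 0.259 and 0.260), while Rplp1 did. Whether these stalk members differ from each other was not tested.

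Rpl5 and Rpl11, which bind 5S rRNA and can hold Mdm2, were not called in any comparison. Rpl5 ran from 152 to 198 CPM in control, from 162 to 188 CPM in NASH and from 158 to 215 CPM in NASH-CH. Its log2 fold changes against control were -0.018 (SE 0.09) and 0.010 (SE 0.10), the latter above 0 where 84 members lay below. Rpl11 ran from 77.7 to 122, from 84.0 to 90.8 and from 75.2 to 102 CPM, with log2 fold changes of -0.18 in both models (adjusted p 0.355 and 0.287).

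Rps6, the target of S6 kinase downstream of mTOR, ran from 117 to 165 CPM in control, from 117 to 134 CPM in NASH and from 124 to 184 CPM in NASH-CH, with log2 fold changes of -0.18 and -0.0099 (adjusted p 0.333 and 0.960). Rpsa, the laminin receptor precursor that the small subunit needs for its maturation, ran from 177 to 248, from 170 to 195 and from 171 to 226 CPM, with -0.25 and -0.16 (adjusted p 0.132 and 0.295). The groups overlapped for both genes.

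Rps27a encodes a small subunit protein fused to ubiquitin, and 2 rows carried the symbol. The row ENSRNOG00000004426 ran from 75.6 to 121 CPM in control and from 68.4 to 88.0 CPM in NASH-CH, and was not called (-0.27, adjusted p 0.131). The row ENSRNOG00000034246 ran from 37.1 to 60.9 and from 22.2 to 49.1 CPM and was called lower in NASH-CH (-0.53, SE 0.16, adjusted p 0.0253). Reads may be divided between these rows.

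The 5 members with the most counts were Rpl10, Rpl4, Rps2, Rplp0 and Rpl41, which take their rank partly from mRNA length, so the levels are not compared between genes. Of these, Rps2, a protein near the mRNA entry site, ran from 231 to 376 CPM in control and from 201 to 246 CPM in NASH-CH, where it fell (-0.45, SE 0.11, adjusted p 0.00922), as did Rpl41. Rpl10, which completes the large subunit late in its assembly, ran from 245 to 329, from 227 to 276 and from 195 to 273 CPM in control, NASH and NASH-CH (log2 fold changes -0.15 and -0.19, adjusted p 0.414 and 0.204). Rpl4 ran from 204 to 359, from 198 to 274 and from 212 to 281 CPM (-0.17 and -0.11, adjusted p 0.504 and 0.614).

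Among the other paralogs, Rps10l1 followed its parent. It ran from 13.8 to 22.4 CPM in control, from 13.9 to 16.5 CPM in NASH and from 10.9 to 14.1 CPM in NASH-CH, and Rps10 from 16.4 to 25.8, from 14.9 to 18.04 and from 13.5 to 17.2 CPM. Both were called lower in NASH-CH, by -0.57 (SE 0.11, adjusted p 0.00159) and -0.43 (SE 0.12, adjusted p 0.0170) in limma.

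In limma with TMM no further paralog was called. DESeq2, and limma with sample quality weights, called Rpl22l1 lower in NASH. Rpl22l1 ran from 9.52 to 19.2 CPM in control, from 8.11 to 10.7 CPM in NASH and from 8.69 to 17.8 CPM in NASH-CH, with log2 fold changes of -0.51 and -0.29 (adjusted p 0.131 and 0.279), beside -0.18 and -0.25 for its parent Rpl22. Rpl7l1 lay between 9.95 and 15.1 CPM over all rats, with -0.16 and -0.15, beside -0.15 and -0.11 for Rpl7. Rpl31l4, Rps4y2 and Rpl10l lay between 1.03 and 6.23 CPM, with log2 fold changes in NASH-CH of -0.19, -0.41 and 0.32, beside -0.33 for Rpl31, -0.05 for the abundant Rps4x row and -0.19 for Rpl10. Rpl5l1, the member outside the test, held 0.124 to 0.617 CPM.

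Members moved together from rat to rat. Over the 18 rats, the median correlation of log2 CPM between pairs of the 88 tested members was 0.76 (Pearson), and the median correlation of a member with the mean of the others was 0.89. These are descriptions: the values of a rat share its library and its TMM factor, which alone moves all members in step, and they hold the differences between groups as well. Below 0.5 lay 7 members: Rpl10l (-0.58), Rps18l1 (0.014), Rps19 (0.16), Rpl30 (0.20), Rps4y2 (0.26), Rps27l (0.34) and the second row of Rpl32 (0.44), of which Rpl10l, Rps18l1, Rps4y2 and the second row of Rpl32 averaged under 3 CPM.

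Rps19, the gene most often mutated in Diamond-Blackfan anaemia, ran from 14.0 to 31.3 CPM in control, from 19.97 to 23.6 CPM in NASH and from 21.9 to 36.6 CPM in NASH-CH. It lay above 0 in NASH-CH (0.28, SE 0.16, adjusted p 0.258 in limma), where nearly all other members lay below. With library size only it was called higher there, in a fit where the median of all genes was itself at 0.27. Rpl30 split the rats of every group. It was between 5.36 and 7.85 CPM in control rats 1, 4 and 6, NASH rat 3 and NASH-CH rats 1, 3 and 5, and between 14.9 and 32.2 CPM in the other 11 rats, with no value between. Rps19 and Rpl30 are named here for their low correlation, after their values were seen.

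**Figure D5:**
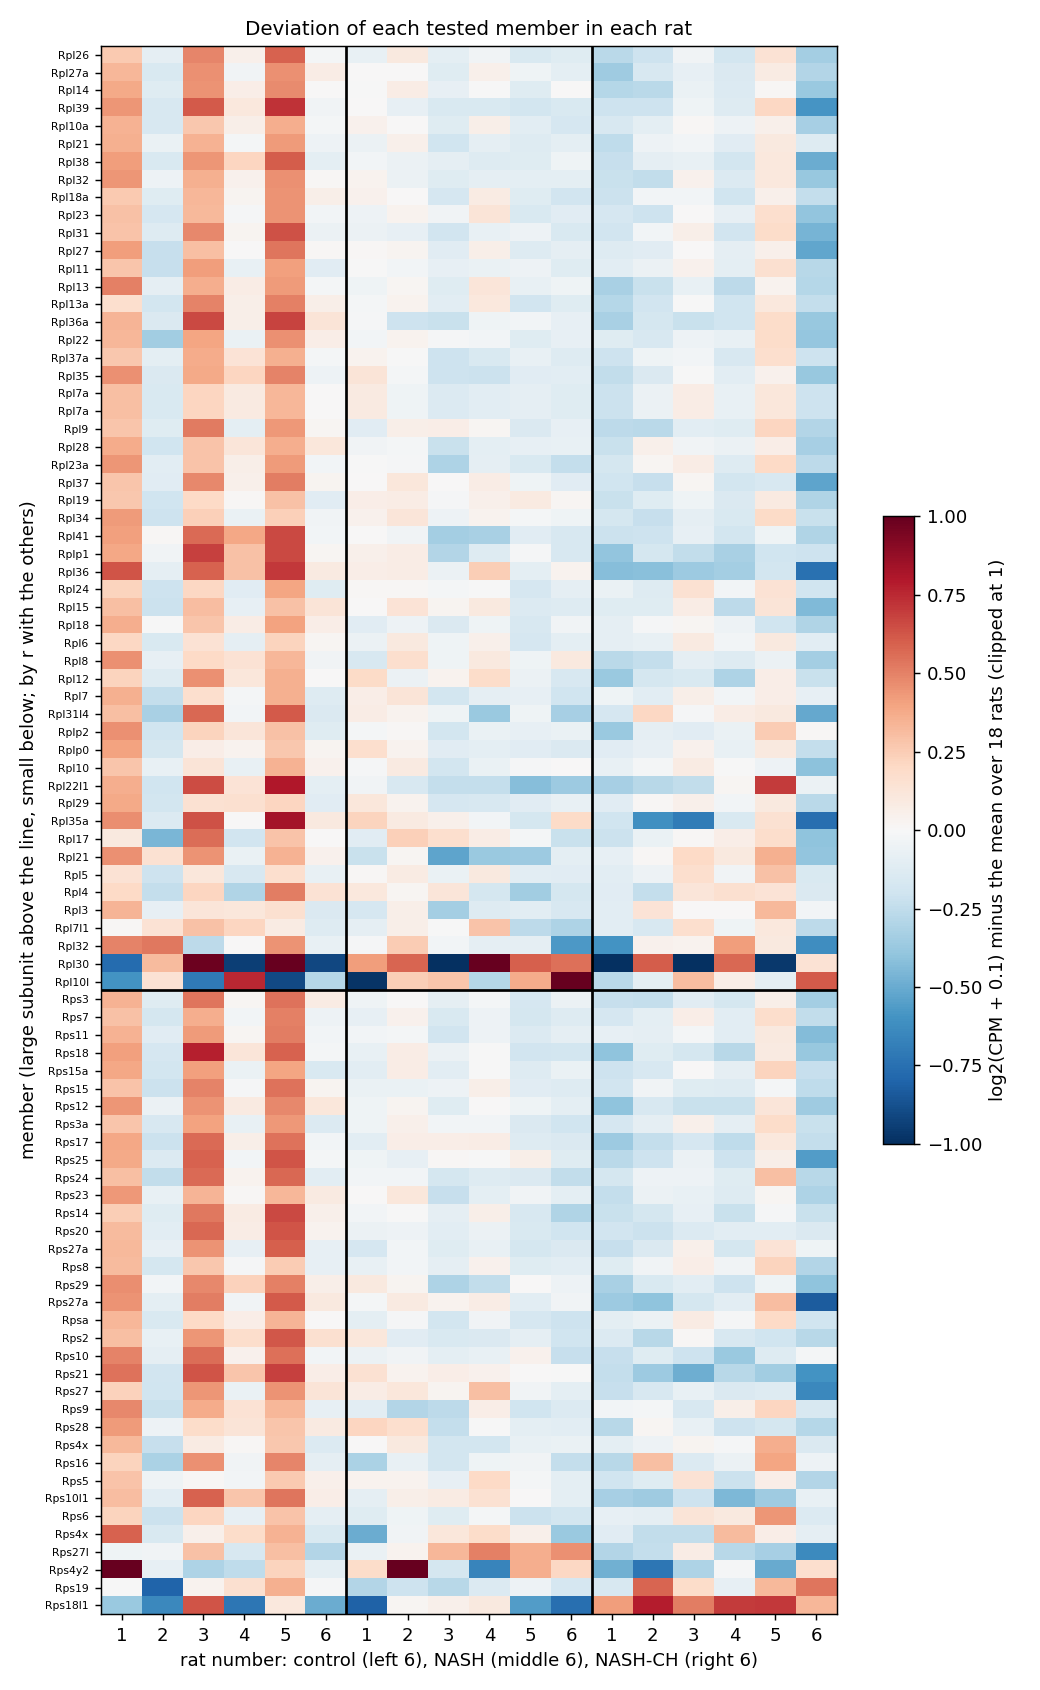
Deviation of each tested member in each rat from its mean over 18 rats, in log2(CPM + 0.1), clipped at 1. Columns are rats 1 to 6 of control, NASH and NASH-CH, and rows are members, large subunit above and small subunit below, ordered by their correlation with the other members. Control rats 1, 3 and 5 are high in nearly all rows under TMM scaling, and Rpl30, Rpl10l, Rps19 and Rps18l1 break the pattern.

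The other genes of the pathway moved less uniformly, apart from the ribosomal proteins of mitochondria, and the medians of some lists lay above 0. Of all genes, 1.54% were called lower and 1.58% higher in NASH, and 8.6% lower and 8.38% higher in NASH-CH. The small counts of the lists other than the mitochondrial one do not set those lists apart from these shares. Of 73 mitochondrial ribosomal protein genes tested, 5 were called lower in NASH and 19 in NASH-CH, with 0 higher in either, and medians of -0.22 and -0.23, near those of the cytosolic members. Without control rats 1, 3 and 5, 0 of them were called in either model, and the medians were -0.11 and -0.14. The largest change in NASH-CH among them was in Mrpl34, from 8.30 ± 1.46 CPM in control to 5.34 ± 0.74 CPM (-0.62, SE 0.14, adjusted p 0.00506), and in NASH in Mrpl1, at 0.248 to 1.69 CPM in control and at 0 in 4 NASH rats.

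Of 72 ribosome biogenesis genes, 1 was called higher and 0 lower in NASH, and 1 higher and 3 lower in NASH-CH, with medians of 0.079 and 0.0037. Utp20, a factor of small subunit assembly, was higher in NASH (0.53, SE 0.13, adjusted p 0.0339). Ebna1bp2, a factor of large subunit assembly, had the largest change in NASH-CH (-1.61, SE 0.50, adjusted p 0.0342), at 2.83 ± 1.18 CPM in control and 1.03 ± 0.66 CPM. Dkc1, the pseudouridine synthase of rRNA, fell from 12.5 ± 1.4 CPM in NASH to 8.78 ± 1.29 CPM in NASH-CH (-0.52, SE 0.11, adjusted p 0.00853). Of 15 genes of RNA polymerase I, which transcribes rRNA, 0 were called in NASH and 1 in NASH-CH: Ubtf, higher (0.26, SE 0.08, adjusted p 0.0331). Their medians were 0.14 in NASH and 0.090 in NASH-CH.

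Of 19 translation factors and partners whose mRNAs are known TOP mRNAs, 1 was called higher in NASH (Nap1l1, 0.49, SE 0.12, adjusted p 0.0358) and 1 lower in NASH-CH (Eef1b2, -0.35, SE 0.10, adjusted p 0.0219), with medians of 0.011 and -0.10. Of 28 other translation factors, 2 were called higher and 1 lower in NASH-CH and 0 in NASH, with Eif4g3 the largest (0.40, SE 0.13, adjusted p 0.0365). Their medians were -0.063 in NASH and -0.073 in NASH-CH. Of 13 genes of mTOR control, 2 were called higher and 1 lower in NASH-CH and 0 in NASH, with medians of 0.23 and 0.12. Eif4ebp2, a repressor of cap-dependent translation, was the largest, at 10.3 ± 2.5 CPM in control and 18.05 ± 5.17 CPM in NASH-CH (0.80, SE 0.19, adjusted p 0.00696). Of 6 transcription factors of ribosomal protein genes, Sp1 alone was called, higher in NASH (0.40, SE 0.11, adjusted p 0.0476). Their medians were 0.12 in NASH and 0.055 in NASH-CH. Leaving out 1 library lost the call of Sp1 in 14 of 18 fits, of Nap1l1 in 9 and of Utp20 and Ubtf in 7. It lost the calls of Ebna1bp2 and Eif4g3 in 5 and that of Eef1b2 in 2. Those of Eif4ebp2 and, between the models, Dkc1 were kept in all 18. Without control rats 1, 3 and 5, none of the calls against control named for these lists was kept, with adjusted p between 0.113 for Eif4ebp2 and 0.494 for Sp1. In all of these lists, 0 genes were called in NASH and 1, Dkc1, lower in NASH-CH then. Rpl36al and Rack1, ribosomal proteins that the symbol rule leaves out, were not called.

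Cell markers moved beside these results. Of all genes, 1.54% were called lower and 1.58% higher in NASH, and 8.6% lower and 8.38% higher in NASH-CH. The 10 hepatocyte markers summed to 132757 to 191878 CPM in control, 95998 to 155881 CPM in NASH and 89654 to 147043 CPM in NASH-CH, with 1 called lower in NASH and 3 in NASH-CH. The 10 macrophage markers summed to 314 to 545, 254 to 361 and 243 to 356 CPM, with 1 called lower in NASH and 5 lower and 1 higher in NASH-CH. The 9 stellate cell and myofibroblast markers summed to 282 to 375, 232 to 313 and 285 to 446 CPM, with 1 called higher and 1 lower in NASH, and 4 higher and 1 lower in NASH-CH. The sums of the endothelial markers ran from 264 to 364, from 342 to 380 and from 207 to 374 CPM, with 1 called higher in NASH-CH. Sums of the cholangiocyte, T and NK cell, B and plasma cell and neutrophil markers were 53.3 CPM or lower in every rat, with 0 called against control. Only 4 of 7, 5 of 10, 2 of 7 and 1 of 6 of them entered the test, so the absence of calls says little. Mpo and Elane of the neutrophil list were at 0 in all NASH rats. In NASH-CH against NASH, 4 stellate cell and myofibroblast, 1 macrophage and 1 cholangiocyte markers were called higher and 1 endothelial marker lower. Without control rats 1, 3 and 5, 0 markers of any list were called in NASH, and in NASH-CH 1 macrophage marker was called higher and 1 lower and 2 stellate cell and myofibroblast markers higher and 1 lower. The part of these cells in the ribosomal protein results was not tested.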

How the data were processed

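Liver RNA of 18 rats, 6 control, 6 NASH and 6 NASH-CH, was sequenced, each rat as its own library. After adapter trimming, the authors used STAR in 2-pass mode on the Rnor_6.0 genome and RSEM with Ensembl genes, and deposited expected counts per gene, which are not scaled for library size or gene length. Tool versions are not given in the sources used here. Per the file headers each table holds 1 column of expected counts, 7.12% of which are not whole numbers, and these were rounded. The labels and the methods name different RNA extraction kits.

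Groups came from the labels. Counts were scaled by TMM, filtered with filterByExpr and tested with voom and limma 3.58.1 (edgeR 4.0.16, R 4.3.3) in 1 fit of all 18 rats, with Benjamini-Hochberg adjustment over all 12904 genes and a threshold of 0.05. The code was run on simulated counts with planted rises and falls in equal number. These lacked the composition differences of the real libraries, so that run does not bear on the scaling. Levels are CPM, the counts of a gene relative to the TMM-scaled library total, and log2 levels used a prior count of 2. The members and the gene lists were chosen with earlier results of these data known, so no list carries a test of its own. Named members are, per comparison, all called members or the 5 largest rises and falls, and with fewer than 3 called the 3 with the largest moderated t. They further include all paralogs beside their parents, the 5 with the highest mean CPM (no coding lengths were used here), 8 genes with textbook roles, and in each pathway list the called gene with the largest change. A gene that this rule would name is not reported here. Libraries of a group differed by far more than counting noise (smallest chi-square per degree of freedom 29.8), so none was counted as a duplicate. Rats with the same number did not deviate together, so they were not paired. Totals of 19498516 counts or more per library leave little counting error for abundant members, but rows near 1 CPM rest on few counts. Alternatives were the edgeR quasi-likelihood test, DESeq2 1.42.0, other scalings, other filters, the compared groups alone, sample weights, a replicate block and leaving out libraries.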

Additional observations from a re-analysis of the deposited data

Results flagged for a closer look

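A rat was looked for that lay far from the other 5 of its group (Dixon's test at the 95% level), in 90 groups of values over the share, the subunit levels and the named members. Chance gives about 1 in 20 such groups, and 6 were found. The share of counts held by the members was 1.076% in NASH-CH rat 5, where the other NASH-CH rats held 0.665% to 0.791%. Rpl22l1 was at 17.8 CPM in the same rat, against 8.69 to 11.1 CPM. Rpl10 was at 195 CPM in NASH-CH rat 6, against 246 to 273 CPM. Rps2 was at 264 CPM in NASH rat 1, against 213 to 229 CPM, and Rpl10l at 5.91 CPM in NASH rat 6, against 1.03 to 2.77 CPM. Rps4y2 was at 6.23 CPM in control rat 1, against 2.07 to 3.02 CPM.

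For 3 of 88 members, 2 lower and 1 higher, the effects of the 2 models differed when tested directly in limma. Of all genes, 2.39% were called lower and 1.81% higher in that comparison, so the count does not set the members apart. NASH-CH exceeded NASH by 0.96 on the log2 scale for Rps18l1, and the difference was -0.46 for Rpl36 and -0.55 for Rps27l. Leaving out 1 library lost the call of Rpl36 in 13 of 18 fits and that of Rps27l in 3.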

How the results depend on the processing

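Limits: the size of the family medians depended on the scaling and on control rats 1, 3 and 5, which were left out with their high levels known. The cause of those levels was not tested, and paralog and repeated rows may share reads. In NASH against control the count of members called was 5 with the edgeR quasi-likelihood test, 16 with DESeq2, 2 with the groups alone, 25 with sample quality weights, 0 without the 3 control libraries and 0 with library size over counts without mitochondrial, 7SK and SRP genes. In NASH-CH against control it was 5 with library size only, 12 with the groups alone, 3 without the 3 control libraries and 8 with that reduced library size, which gave 1 in NASH-CH against NASH. Leaving out 1 library gave 0 to 15, 21 to 48 and 1 to 4 members in the 3 comparisons. Counts without the share of all genes called in the same fit do not set the members apart from other genes. The family medians under library size only were 0.014 and -0.023 in NASH and 0.0010 and -0.053 in NASH-CH (large, small), so both large subunit medians turned sign. Without the 3 control libraries they were -0.016 and -0.018 in NASH, and -0.073 for the large subunit in NASH-CH. Leaving out 1 library moved the medians between -0.27 and -0.16 and between -0.33 and -0.19 in NASH, between -0.33 and -0.21 and between -0.38 and -0.26 in NASH-CH, and between -0.092 and -0.011 and between -0.096 and -0.050 between the models. With the total without mitochondrial, 7SK and SRP genes the share was 1.30%, 1.16% and 1.18% in control, NASH and NASH-CH. Over the 70 members without paralogs and repeated symbols it was 0.710% in control and 0.707% in NASH, and the subunit difference was 0.020 in NASH. As a median over genes that difference was 0.032, 0.11 and 0.15, and by summed counts 0.71, 0.74 and 0.73, in the same order. Shared rat numbers did not pair the rats: the correlation of their deviations averaged 0.052, 0.073 and 0.015, and 2 of 6 rats correlated best with their own number. With the replicate block 1, 34 and 2 members were called, and Rpl36 between the models had an adjusted p of 0.0512.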
